A study of Mus musculus with 12 samples.

Results

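The cytosolic translation initiation and elongation factors were examined in RNA-Seq libraries of U2OS, a human osteosarcoma cell line. They were taken as the protein-coding genes whose full name in the deposited table begins with eukaryotic translation initiation factor or eukaryotic translation elongation factor. Kinases (4 genes) and EIF4A3 were left out. This gave 58 of the 58735 genes listed, 51 of them initiation factors and 7 elongation factors. Of these, 55 had a mean of at least 0.5 FPKM (a read density corrected for gene length and sequencing depth) over the 12 libraries and entered the tests. EIF1AY, EIF4E1B and EEF1G did not pass this filter.

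There were 4 groups with 3 replicates each: blank U2OS cells, cells with the siRNA siSRSF1-2, cells with the siRNA siSRSF1-3 (both against the splicing factor SRSF1), and cells in which the long non-coding RNA LINC01134 was overexpressed (OE-LINC01134). No library with a control siRNA or an empty vector was among them, so the effect of transfection or of a vector could not be separated from that of the siRNA or the transcript. The labels do not say whether replicates came from separate cultures, and p-values may therefore measure technical spread. The labels name mouse as the organism, whereas the table lists human genes under human Ensembl identifiers.

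A cell begins protein synthesis when eIF2 carries the initiator tRNA to the small ribosomal subunit, eIF3 and the eIF1 proteins hold that subunit open for scanning, and the eIF4 proteins bring in the capped mRNA. The exchange factor eIF2B recharges eIF2 with GTP and is the point at which stress signals slow initiation, while the 4E-binding proteins block the cap-binding protein when mTOR is inactive. After the subunits join, eEF1 delivers aminoacyl-tRNA and eEF2 moves the ribosome along the message. Many tumor cells depend on a high supply of these factors.

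The libraries held between 26237763 and 32954539 reads on genes. Not all replicates resembled each other. Blank replicate 1 was nearer to OE-LINC01134 replicate 2 (a median squared count difference 16.6 times that of counting noise) than to the other blank libraries (28.6 and 30.3 times), which differed from each other by 2.36 times. OE-LINC01134 replicate 2 differed from replicates 1 and 3 of its group by 30.1 and 30.5 times. Replicate 3 of siSRSF1-3 was nearer to the siSRSF1-2 libraries (14.6 to 18.3 times) than to replicates 1 and 2 of its own group (86.9 and 47.8 times). The authors computed the FPKM of siSRSF1-3 replicates 1 and 2 with a library size of 0.712 and 0.888 of the reads on genes. Elsewhere this was 0.990 to 1.09, so on a per-read basis the values of these replicates stand higher than those of other libraries. In all 12 libraries the sizes were proportional to median-of-ratios factors, which equalize the median count ratio of a library to the average library. Such scaling holds the median over all genes near 0 in each comparison. Of the osteoblast-lineage and mesenchymal markers, VIM, SPARC and COL1A1 were present at 14.1 to 248 FPKM, RUNX2 at 1.55 to 3.92 FPKM and ALPL at 1.09 to 12.9 FPKM. COL1A2, IBSP and SP7 stood at 0.107 FPKM or less in every library. The leukocyte markers PTPRC and CD3E did not exceed 0.0559 FPKM, but the epithelial keratin KRT18 reached 42.8 to 163 FPKM. The epithelial markers EPCAM and CDH1 also had a mean of at least 0.5 FPKM over the 12 libraries.

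SRSF1 was measured first as a check of the knockdown. It stood at 35.9, 19.8 and 20.5 FPKM in blank replicates 1 to 3, at 7.09, 7.46 and 7.41 FPKM with siSRSF1-2, at 3.33, 6.81 and 7.90 FPKM with siSRSF1-3, and at 31.8, 29.6 and 30.3 FPKM with OE-LINC01134. No knockdown library reached the level of a blank library. The exact permutation test gave a two-sided p of 0.1 for each siRNA, the smallest value that 3 against 3 libraries allow. With limma the log2 fold change was -1.72 (adjusted p = 0.00500) with siSRSF1-2 and -2.09 (adjusted p = 0.0518) with siSRSF1-3. The target itself thus did not pass at an adjusted p under 0.05 with siSRSF1-3. In bulk RNA, fewer cells with a transcript and less of it per cell cannot be told apart. LINC01134 itself stood at 891, 1279 and 878 FPKM in the overexpressing libraries and at 1.11 FPKM or less in the 9 others.

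By mean FPKM in blank cells, and over all 12 libraries, the elongation factors EEF1A1 and EEF2 were the most abundant members. In siSRSF1-3 replicates 1 and 2, EIF1 stood above EEF2 (983 and 582 FPKM against 342 and 573 FPKM), and in replicate 1 so did EIF4EBP1 (868 FPKM). EEF1A1, the GTPase that carries aminoacyl-tRNA to the ribosome, averaged 1596 ± 63.7 FPKM (SD, n = 3) in blank cells, 1550 ± 33.0 FPKM with siSRSF1-2, 1543 ± 131 FPKM with siSRSF1-3 and 1427 ± 300.0 FPKM with OE-LINC01134. EEF2, the translocase, followed with 545 ± 20.8 FPKM in blank cells. EEF1B2, a subunit of the nucleotide exchange factor of EEF1A1, stood at 239 ± 9.90 FPKM. The initiation factors with the highest means over all 12 libraries were EIF1, which guards the choice of the start codon, and EIF4EBP1, a repressor of cap binding. In blank cells EIF1 reached 210.5 ± 34.2 FPKM and EIF4EBP1 183 ± 15.3 FPKM. The blank mean of EIF5A, whose values are given below, lay above that of EIF4EBP1. The blank libraries of EEF1B2 and EIF1 overlapped, as did those of EIF1 and EIF4EBP1. At the other end, EIF4A1, EIF4E3, EIF2S3B and EIF4EBP3 had blank means between 0.438 and 1.63 FPKM.

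**Figure D1:**
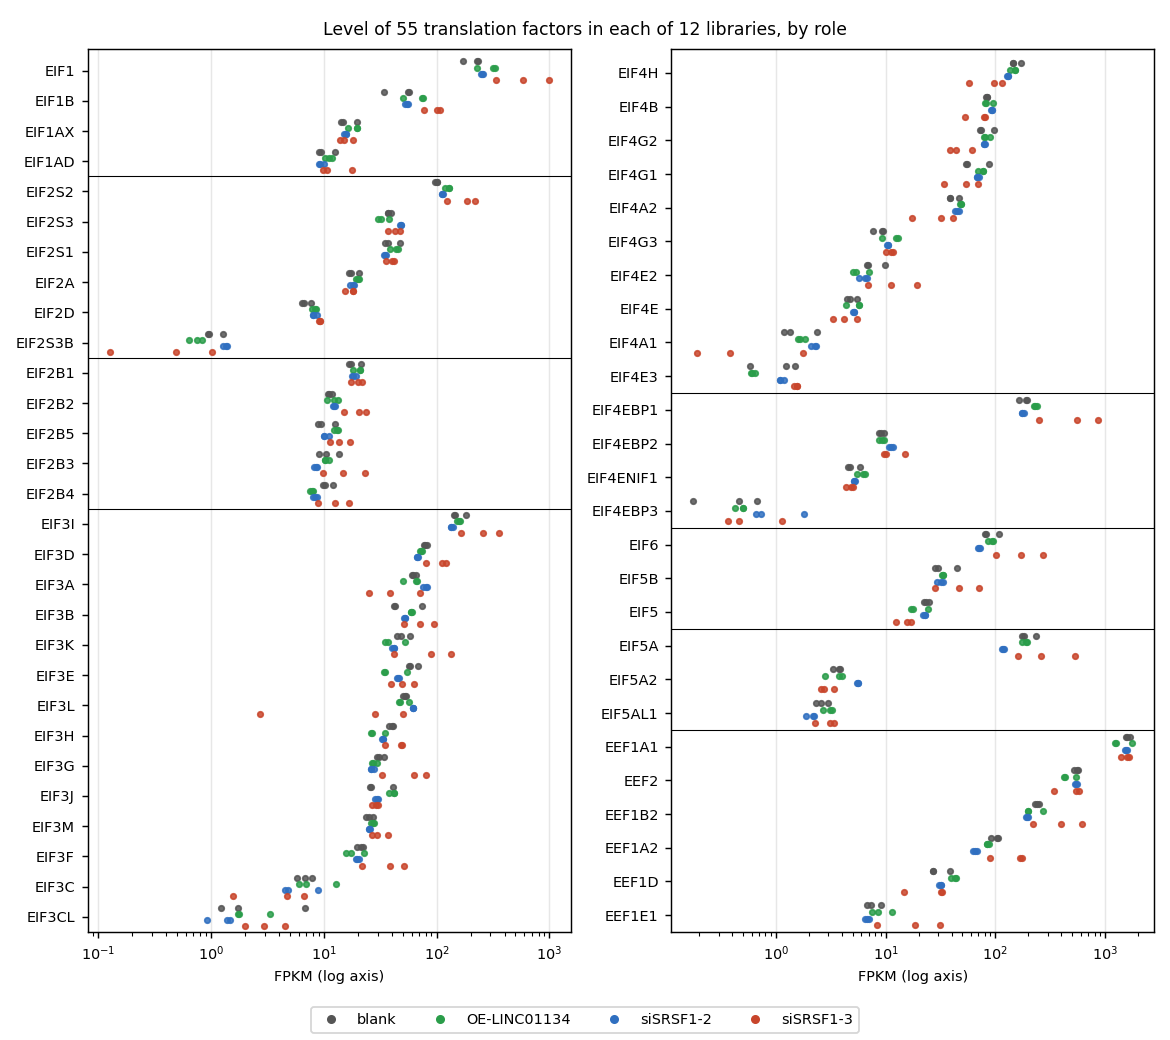
FPKM on a log axis for the 55 tested members in all 12 libraries, 1 point per library, colored by group and ordered by role from the scanning factors and eIF2, eIF2B and eIF3 (left) to the eIF4 proteins, 4E-binding proteins, joining factors, eIF5A and elongation factors (right). The siSRSF1-3 points (red) are the most spread, as for EIF3L (2.71 to 50.04 FPKM), whereas the siSRSF1-2 points (blue) lie close together.

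Several values carry a limit from shared sequence or position. EEF1G, the gamma subunit of the same exchange complex, was listed at 0 in 11 of 12 libraries and at 0.0129 FPKM in the other, while a processed pseudogene of it on chromosome 7 (ENSG00000283041) was listed at 131 to 241 FPKM. EIF4A1, the main RNA helicase of cap-dependent initiation in most cells, was listed at no more than 2.36 FPKM. It shares its strand and position with 5 other annotated genes, the highest of which averaged 0.0444 FPKM. EEF1A1P5, a pseudogene of EEF1A1, averaged 211 FPKM. In all, 171 pseudogenes carried the name of a member, and 23 of them passed the filter of 0.5 FPKM. The values of EEF1A1, EEF1G, EIF3C with EIF3CL, EIF5A with EIF5AL1 and EIF2S3 with EIF2S3B are therefore uncertain, since reads may have been divided between near-identical copies. That of EIF4A1 is uncertain too. Whether its reads were left uncounted where it overlaps other genes was not tested. A gene on the same strand overlapped 25 members, and an expressed gene on the opposite strand overlapped 29.

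With siSRSF1-2, 13 translation factors passed the test against blank cells, 6 higher and 7 lower, and none by more than 2-fold. The lower genes were led by EIF5A and EEF1A2, and the higher ones by EIF5A2, a paralog of EIF5A. Over all 17538 genes tested, 14.0% were called higher and 12.8% lower, so the members' shares (6 and 7 of 55) were near this background. The median log2 fold change of the members was -0.03 against 0.02 over all genes. At an absolute log2 fold change over 1, 4.95% of all genes and 0 members passed, and no member beyond this fold had an unadjusted p under 0.05 in limma or an adjusted p under 0.05 with voom. Cell markers moved in the same comparison. VIM, COL1A1, RUNX2 and the keratin KRT18 fell by 1.39, 0.97, 0.68 and 0.93 on the log2 scale (adjusted p = 0.00148, 0.0190, 0.00615 and 0.0330), SPARC had a value of -0.89 (adjusted p = 0.0693), and ALPL rose by 0.43 (adjusted p = 0.00984). Their part in the members' values was not tested.

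EEF1A2 (ENSG00000101210, chromosome 20), the elongation factor form known from muscle and nerve, stood at 91.2, 107 and 103 FPKM in blank cells and at 67.5, 65.1 and 62.9 FPKM with siSRSF1-2. The groups did not overlap, and the log2 fold change was -0.62 ± 0.08 (SE, adjusted p = 0.00376, limma). EIF5A (ENSG00000132507, chromosome 17), which carries the modified residue hypusine and helps the ribosome through difficult peptide bonds, stood at 232, 181 and 174 FPKM in blank cells and at 120, 114 and 118 FPKM with siSRSF1-2. It fell by 0.72 on the log2 scale (SE 0.12, adjusted p = 0.00848), again without overlap. Its paralog EIF5A2 (ENSG00000163577, chromosome 3) moved the other way, from 3.34, 3.74 and 3.84 FPKM to 5.48, 5.61 and 5.55 FPKM, with a log2 fold change of 0.60 ± 0.08 and an adjusted p of 0.00517. EEF1B2 fell from 238, 230 and 250 FPKM to 189, 195 and 197 FPKM, a log2 fold change of -0.30 (adjusted p = 0.0121). The third member of the eIF5A group, EIF5AL1, had a log2 fold change of -0.31 and did not pass (adjusted p = 0.129).

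Of the 14 eIF3 genes, which count EIF3C and its near-identical copy EIF3CL separately, 2 rose and 3 fell with siSRSF1-2, beside 14.0% and 12.8% of all genes. EIF3A, the largest scaffold subunit, rose from 66.1, 62.2 and 60.7 FPKM to 76.3, 80.0 and 82.4 FPKM (log2 fold change 0.34, adjusted p = 0.0117). EIF3L, a subunit of the outer part of the complex, rose from 53.7, 50.6 and 52.7 FPKM to 61.6, 61.9 and 62.1 FPKM (0.24, adjusted p = 0.0189). In both genes all siSRSF1-2 libraries lay above all blank libraries. EIF3E fell by 0.41 on the log2 scale, from 67.8, 56.5 and 58.6 FPKM to 44.7, 46.2 and 46.0 FPKM (adjusted p = 0.0149). EIF3H and EIF3D, the latter a subunit that can itself bind the cap, fell by 0.25 and 0.23 (adjusted p = 0.0216 and 0.0225). The other 9 genes did not pass, and the median over the 14 was -0.21 on the log2 scale.

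Within eIF2, the gamma subunit EIF2S3 rose from 39.3, 37.4 and 37.5 FPKM to 47.2, 48.4 and 48.8 FPKM (log2 fold change 0.34, adjusted p = 0.00750). The beta subunit EIF2S2 rose by less, from 100.3, 97.5 and 101 FPKM to 114, 111 and 112 FPKM (0.17, adjusted p = 0.0449). The alpha subunit EIF2S1, the one that stress kinases phosphorylate, had a log2 fold change of -0.16 and did not pass (adjusted p = 0.353). Of the 5 subunits of the exchange factor eIF2B, the delta subunit EIF2B4 alone passed, with a fall of 0.34 from 12.1, 9.75 and 10.3 FPKM to 8.37, 8.10 and 8.68 FPKM (adjusted p = 0.0453). Among the 4E-binding proteins EIF4EBP2 rose from 8.70 to 9.59 FPKM in blank cells to 10.7, 11.2 and 11.6 FPKM (0.29, adjusted p = 0.0273). EIF4EBP3 had the highest log2 fold change of all members, 1.11, but its libraries ranged from 0.655 to 1.81 FPKM against 0.177 to 0.679 FPKM in blank cells, which overlapped (adjusted p = 0.169). The lowest value, -0.93 for EIF3CL, rested on blank replicate 1, where it stood at 6.76 FPKM against 1.22 and 1.73 FPKM in the other blank libraries (adjusted p = 0.305). None of the 10 tested eIF4 proteins, 4 scanning factors and 3 joining factors passed.

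These calls depended on single libraries. Without blank replicate 1, 21 members were called higher and 14 lower (27.4% and 24.7% of all genes), and without siSRSF1-2 replicate 3, 1 higher and 2 lower (5.16% and 5.27%). When 1 estimate of the spread was shared by all 4 groups, 0 members passed in either direction, beside 1.74% and 2.01% of all genes. Without blank replicate 2 the counts were 3 and 5 (9.62% and 8.82% of all genes), and without blank replicate 3 they were 3 and 4 (9.45% and 8.31%). Without siSRSF1-2 replicate 1 they were 3 and 2 (6.33% and 5.74%), and without its replicate 2 they were 2 and 2 (5.35% and 5.34%). The counts over all genes thus went down and up with the same omissions. EEF1A2, EIF5A2 and EIF5A passed in all 6 omissions.

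**Figure D2:**
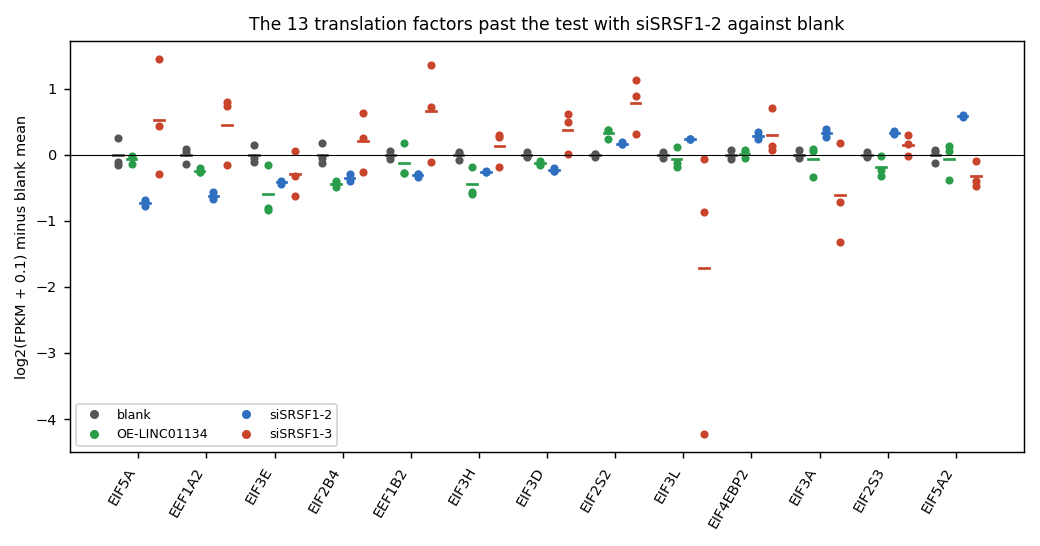
Difference of each library from the blank mean on the log2(FPKM + 0.1) scale for the 13 members called with siSRSF1-2, with 1 point per library and a bar at the group mean. The siSRSF1-2 points (blue) lie below 0 for EIF5A (mean -0.72) and EEF1A2 (-0.62) and above it for EIF5A2 (0.60), while the siSRSF1-3 points (red) are widely spread.

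With siSRSF1-3 against blank, 0 members passed in either direction with limma and 0 with voom on the recovered reads, while 0.342% of all genes were called higher and 0.935% lower, and 1.26% passed with a log2 fold change over 1. Before adjustment (p under 0.05), 7 members were higher and 3 lower, where 15.2% and 13.6% of all genes were. The median log2 fold change was 0.26 for the members and -0.01 for all genes. The sum of FPKM over the initiation factors was 4606, 3360 and 2359 in replicates 1 to 3, against 2124 to 2389 in blank cells. As a share of each library's reads, the members took 2.03%, 2.27% and 2.25% in these libraries and 2.27% to 2.40% in blank ones. The median of the members was 0.00 when FPKM were scaled to each library's own reads, and -0.18 when they were scaled to a common sum, with medians of -0.26 and -0.43 over all genes. The sign of the members' median thus depended on the scaling. Scaling a library shifts all its genes nearly alike, so the members' position above all genes could not be tested in this way.

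The 3 siSRSF1-3 libraries differed widely, both in these genes and over all genes. Relative to the blank mean, 25 of the 55 members differed by more than 2-fold in replicate 1 (16 higher and 9 lower), 6 in replicate 2 and 0 in replicate 3. The SD of the log2 differences over the members was 1.24, 0.66 and 0.28 in replicates 1 to 3. Over all genes it was larger, at 1.37, 1.02 and 0.68. The share of all genes beyond 2-fold in each library is not given here. The median by library was 0.31, 0.24 and 0.01. By role, the scanning factors had the highest median fold change (0.63 on the log2 scale, 4 genes) and the eIF4 proteins the lowest (-0.30, 10 genes). The scanning genes, among which EIF1AD was counted, ranged from -0.04 for EIF1AX and 0.26 for EIF1AD to 1.47 for EIF1. The 5 eIF2B subunits all had values above 0, with a median of 0.45, while 8653 of the 17538 genes were above 0. By library the eIF2B median was 0.73, 0.43 and -0.06 in replicates 1 to 3, so replicate 3 had the opposite sign.

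**Figure D3:**
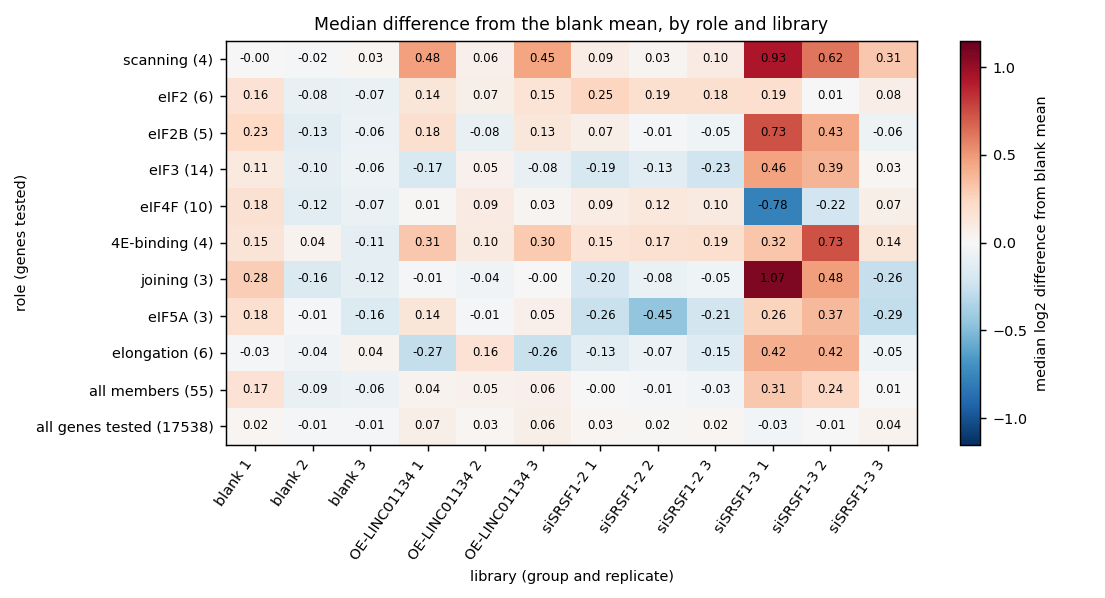
Median log2 difference from the blank mean over the tested genes of each role (rows) in each library (columns), with the number of genes in brackets. In siSRSF1-3 replicate 1 the joining factors are at 1.07 and the eIF4 proteins (row eIF4F) at -0.78. In replicate 3 they are at -0.26 and 0.07. The row for all genes, held near 0 by the library sizes used, stays between -0.03 and 0.07.

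EIF1 (ENSG00000173812, chromosome 17) stood at 983, 582 and 336 FPKM with siSRSF1-3, against 171, 228 and 232 FPKM in blank cells. All 3 libraries were higher than the blank ones, with a log2 fold change of 1.47 ± 0.43 that did not pass (adjusted p = 0.102). EIF1B, its close paralog, stood at 101, 107 and 78.1 FPKM against 34.1, 56.4 and 55.6 FPKM (0.99 ± 0.27, adjusted p = 0.0934). EIF4EBP1 (ENSG00000187840, chromosome 8) stood at 868, 551 and 251 FPKM against 165, 195 and 188 FPKM, likewise without overlap (1.44 ± 0.46, adjusted p = 0.116). EIF2B2, the beta subunit of eIF2B, had the smallest adjusted p of the members in this comparison (0.0925), with 23.5, 20.5 and 15.1 FPKM against 11.1, 10.9 and 11.9 FPKM.

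In EIF1, EIF4EBP1 and EIF2B2 replicate 1 was farthest from blank and replicate 3 nearest. EEF1E1, which sits in the aminoacyl-tRNA synthetase complex, showed the same order with 31.2, 18.4 and 8.40 FPKM, and its replicate 3 lay within the blank range of 6.81 to 9.12 FPKM. The anti-association factor EIF6 stood at 271, 171 and 101 FPKM, of which the last was within the blank range of 80.1 to 109 FPKM.

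The lowest member was EIF3L (ENSG00000100129, chromosome 22). It stood at 2.71 FPKM in replicate 1, 28.6 FPKM in replicate 2 and 50.04 FPKM in replicate 3, against 50.6 to 53.7 FPKM in blank cells. Replicate 3 thus stood just under the blank range. The log2 fold change was -1.72 with an SE of 0.98 (adjusted p = 0.268). EIF4A1 followed at 0.192, 0.385 and 1.76 FPKM against 2.36, 1.35 and 1.18 FPKM (-1.37, adjusted p = 0.221), where the groups overlapped. EIF4G2, a relative of EIF4G1 that lacks the site for the cap-binding protein, stood at 38.4, 43.7 and 61.3 FPKM against 96.2, 72.5 and 74.5 FPKM (-0.78 ± 0.25, adjusted p = 0.114). EIF5, which makes eIF2 hydrolyse GTP at the start codon, stood at 12.5, 15.7 and 17.1 FPKM against 24.9, 22.1 and 23.4 FPKM (-0.64 ± 0.18, adjusted p = 0.1002). For these 2 genes no siSRSF1-3 library reached a blank library.

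Across the 55 members, the fold change with siSRSF1-3 went with gene length (Pearson r = -0.36, Spearman rho = -0.36, a description over genes that share libraries). The 27 members of up to 4910 bases had a median of 0.46, and the 28 of 5316 bases or more a median of -0.03. Over all genes tested the correlations were -0.01 and -0.15. With a loess trend on gene length removed, the members' median was 0.27. The part of length in these values was not tested further.

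The calls depended on replicate 3 and on how the spread was estimated. Without replicate 3, 14 members were called higher and 6 lower (19.1% and 16.8% of all genes). Without replicate 1 the count stayed at 0 and the median was 0.09. With the spread shared by all 4 groups, 9 members were higher and 3 lower, beside 14.9% and 12.9% of all genes.

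**Figure D4:**
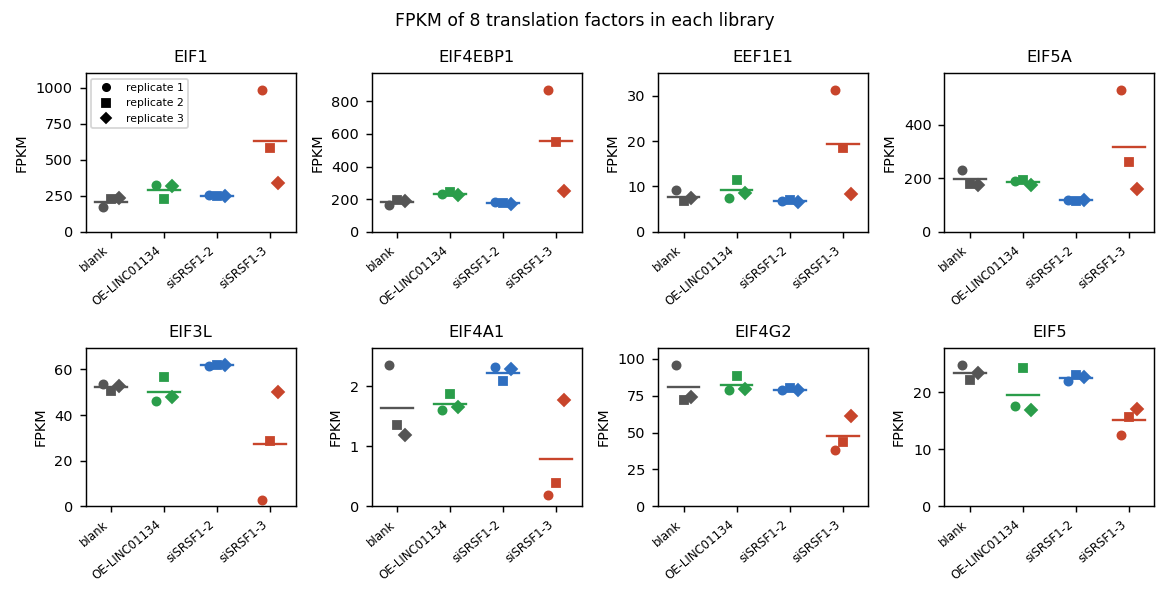
FPKM of 8 members in each library on linear axes from 0, with circles, squares and diamonds for replicates 1, 2 and 3 and a bar at the group mean. With siSRSF1-3, EIF1 spans 336 to 983 FPKM and EIF3L 2.71 to 50.04 FPKM, with replicate 3 nearest to the blank libraries in both.

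The siRNAs were then compared directly, since both target SRSF1. With siSRSF1-3 against siSRSF1-2, 0 members passed in either direction with limma, beside 0.0342% of all genes higher and 0.0513% lower, and 0.0855% with a log2 fold change over 1. Before adjustment (p under 0.05), 18 members were higher and 6 lower, where 21.9% and 20.2% of all genes were. With voom on the recovered reads, 0 were higher and 1, EIF5A2, was lower. The smallest adjusted p was that of EIF5A2 (0.0613), which stood at 3.40, 2.74 and 2.59 FPKM with siSRSF1-3 and 5.48, 5.61 and 5.55 FPKM with siSRSF1-2, a log2 difference of -0.92 ± 0.14. EEF1A2 stood at 174, 166 and 89.7 FPKM with siSRSF1-3, above all siSRSF1-2 libraries (log2 difference 1.08 ± 0.28, adjusted p = 0.0800). EIF5A differed by 1.26 ± 0.43 (adjusted p = 0.0939), with 529, 262 and 159 FPKM under siSRSF1-3.

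The highest differences between the siRNAs were 1.48 for EIF4EBP1 (adjusted p = 0.0851) and 1.31 for EEF1E1 (adjusted p = 0.0948). The lowest were -1.96 for EIF3L (adjusted p = 0.187) and -1.85 for EIF4A1 (adjusted p = 0.0989). EIF1B, EIF5 and EIF4G2 differed by 0.80, -0.59 and -0.75 (adjusted p = 0.0735, 0.0793 and 0.0801). The median over the members was 0.15, but -0.15 with scaling to each library's own reads. Without siSRSF1-3 replicate 3, 25 members were called higher and 10 lower (31.2% and 30.0% of all genes), and without its replicate 1, 0 and 0.

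Both comparisons with blank share the blank libraries, so the values are given side by side. EEF1A2 stood at -0.62 (log2) with siSRSF1-2 and at 0.46 with siSRSF1-3, EIF5A -0.72 and 0.53, EIF5A2 0.60 and -0.32, and EEF1B2 -0.30 and 0.66. EIF3A stood at 0.34 and -0.61, and EIF3L at 0.24 and -1.72. EIF3H stood at -0.25 and 0.14, EIF3D at -0.23 and 0.38, and EIF2B4 at -0.34 and 0.21. EIF2S2, EIF2S3 and EIF4EBP2 had values above 0 with both siRNAs (0.17 and 0.78, 0.34 and 0.15, 0.29 and 0.31). EIF3E was below 0 with both, at -0.41 and -0.29. None of the siSRSF1-3 values passed its test.

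With LINC01134 overexpression, 0 members passed in either direction with limma and 0 with voom, beside 0.450% of all genes higher, 0.730% lower and 0.850% with a log2 fold change over 1. Before adjustment (p under 0.05), 4 members were higher and 3 lower, where 14.0% and 12.3% of all genes were. The median log2 fold change was 0.03 for the members and 0.05 for all genes. The markers ALPL and RUNX2 fell by 1.91 and 0.98 in this comparison (adjusted p = 0.0402 and 0.0486), and their part in the members' values was not tested. The medians by library were -0.17, 0.05 and -0.08 for the eIF3 subunits and -0.27, 0.16 and -0.26 for the elongation factors, with replicate 2 on the other side of 0 from replicates 1 and 3.

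EIF3E stood at 34.9, 54.7 and 33.9 FPKM with OE-LINC01134 against 67.8, 56.5 and 58.6 FPKM in blank cells (log2 fold change -0.60, adjusted p = 0.132), and EIF3H at 26.7, 34.9 and 26.2 FPKM against 40.4, 37.6 and 40.8 FPKM (-0.45, adjusted p = 0.110). In both subunits the groups did not overlap, with replicate 2 the highest of its group. EIF2S2 stood at 129, 118 and 129 FPKM against 100.3, 97.5 and 101 FPKM (0.33 ± 0.09), and its adjusted p was the smallest of the members here (0.0965). EIF2B4 stood at 7.60, 8.09 and 7.90 FPKM, below the blank range of 9.75 to 12.1 FPKM (-0.43 ± 0.12, adjusted p = 0.0984). EIF4EBP1 stood at 230, 241 and 224 FPKM, above the blank range of 165 to 195 FPKM (0.35, adjusted p = 0.109). EEF1D, another subunit of the exchange complex of EEF1A1, had the highest value, 0.46, with 43.1, 39.4 and 44.0 FPKM against 38.9, 27.1 and 27.0 FPKM (adjusted p = 0.143). EIF1B followed with 0.46 and an adjusted p of 0.284, and EIF4E3, a cap-binding relative of EIF4E, was lowest at -0.66 (adjusted p = 0.278).

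Without blank replicate 1, 6 members were called higher and 2 lower with LINC01134 overexpression (7.61% and 6.31% of all genes), and without OE-LINC01134 replicate 2, 3 higher and 7 lower (2363 and 2104 of the 17538 genes). With both of these libraries left out, a choice made after seeing the data, 25 members were higher and 16 lower, beside 33.9% and 25.8% of all genes.

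Pairs of paralogs were compared as a ratio of FPKM + 0.1 within each library. Such a ratio does not depend on the scaling between libraries, except through the 0.1 added, which matters for low genes. EIF5A2 relative to EIF5A averaged -5.70 ± 0.33 on the log2 scale (SD, n = 3) in blank cells, -4.38 ± 0.06 with siSRSF1-2, -6.55 ± 0.68 with siSRSF1-3 and -5.70 ± 0.32 with OE-LINC01134. All siSRSF1-2 libraries had a higher ratio than all blank libraries (a difference of 1.32) and than all siSRSF1-3 libraries (by 2.17 on the log2 scale). EEF1A2 relative to EEF1A1 averaged -3.99 ± 0.10 in blank cells and -4.57 ± 0.07 with siSRSF1-2, again without overlap. With siSRSF1-3 that ratio was -3.25, -3.25 and -3.96 in replicates 1 to 3, above all siSRSF1-2 libraries. For each of these non-overlapping pairs the exact two-sided permutation p was 0.1, the smallest possible, and 0.35 after adjustment over 28 tests, so that no ratio could pass in this design.

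The other pairs moved less or with more spread. EIF4E2, which represses translation at the cap, relative to EIF4E, the canonical cap-binding protein, averaged 0.66 ± 0.17 in blank cells and 0.28 ± 0.14 with siSRSF1-2 without overlap, and 2.50, 1.40 and 0.32 in the siSRSF1-3 libraries. EIF4A2 relative to EIF4A1 averaged 4.63 ± 0.35 in blank cells, 4.27 ± 0.13 with siSRSF1-2 and 5.48 ± 0.87 with siSRSF1-3, with the limit on EIF4A1 given above. Between the siRNAs this ratio did not overlap, with a difference of 1.20. Its size depends on the 0.1 added, since EIF4A1 is low. The log2 difference of EIF4A1 alone between the siRNAs was -1.85, -0.96 with a pseudocount of 1 and -2.10 with 0.01. EIF4G3 relative to EIF4G1, both scaffolds of the cap complex, also differed between the siRNAs without overlap (0.51), as did EIF4G2 relative to EIF4G1 (-0.30). EIF1B relative to EIF1 overlapped with blank in each comparison.

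**Figure D5:**
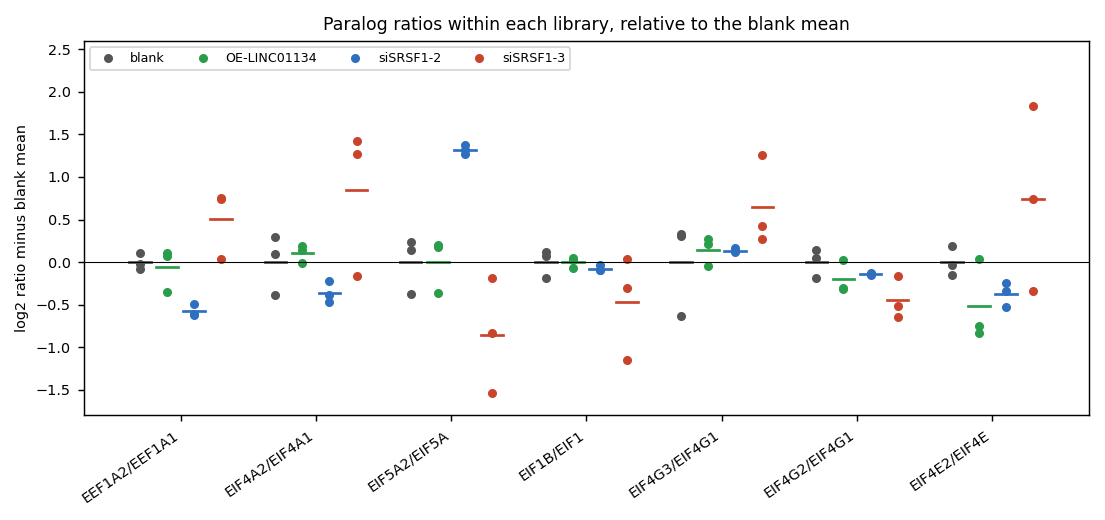
Log2 ratio of 7 paralog pairs within each library minus the blank mean, with 1 point per library and a bar at the group mean. The EIF5A2/EIF5A ratio stands 1.32 above blank with siSRSF1-2 and 0.85 below it with siSRSF1-3, and EEF1A2/EEF1A1 stands 0.58 below and 0.51 above.

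Members with a terminal oligopyrimidine tract at the start of their mRNA, which are translated under the control of mTOR and LARP1, were counted separately (EEF1A1, EEF2, EEF1B2, EEF1D, EEF1G, EIF3E, EIF3F, EIF3H and EIF4B, of which 8 were tested). With siSRSF1-2, 0 of the 8 rose and 3 fell (EIF3E, EEF1B2 and EIF3H), beside 12.8% lower over all genes. The median of these 8 was -0.07 (log2) with siSRSF1-2, -0.12 with siSRSF1-3 and -0.19 with OE-LINC01134, against -0.02, 0.29 and 0.10 for the 47 other members. By library the medians with OE-LINC01134 were -0.31, 0.13 and -0.35, so replicate 2 had the opposite sign.

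Genes outside the family that control translation were read beside it (33 listed, 32 tested). With siSRSF1-2, 9 rose and 3 fell, beside 14.0% higher and 12.8% lower over all genes. TSC1, a brake on mTOR, rose from 3.56, 3.48 and 3.43 FPKM to 5.36, 5.70 and 5.84 FPKM (log2 fold change 0.67, adjusted p = 0.00285). The recycling factor DENR rose by 0.44 (adjusted p = 0.00374) and PAIP1, a partner of the poly(A)-binding protein, by 0.35 (adjusted p = 0.00625). The kinase MTOR itself rose by 0.67 (adjusted p = 0.00849), RPS6KB1, the S6 kinase downstream of it, by 0.69 (adjusted p = 0.00834) and TSC2, the partner of TSC1, by 0.53 (adjusted p = 0.0125). EEF2K, the kinase that inactivates EEF2, fell by 0.75 (adjusted p = 0.0198). With siSRSF1-3, 0 of the 32 passed with limma, with 5 above blank and 2 below it at unadjusted p-values under 0.05, where 15.2% and 13.6% of all genes were. EEF2K came nearest, at 0.471, 0.662 and 0.596 FPKM against 2.23, 1.82 and 1.54 FPKM (-1.53, adjusted p = 0.0506). MTOR, RPS6KB1 and TSC2 had -0.30, 0.41 and 0.29 (adjusted p = 0.498, 0.216 and 0.313). PPP1R15A, the stress-induced subunit of the eIF2 alpha phosphatase, stood at 655, 546 and 417 FPKM against 50.1, 178 and 173 FPKM (2.20, adjusted p = 0.0772), and EEFSEC, the elongation factor for selenocysteine, at 7.77, 5.52 and 3.72 FPKM against 3.34, 2.22 and 2.94 FPKM (0.93, adjusted p = 0.118). With OE-LINC01134, 0 of the 32 passed with limma, and the unadjusted counts were again 5 above and 2 below, beside 14.0% and 12.3% of all genes. RPS6KB1 had 0.70 (adjusted p = 0.0749), PAIP1 0.46 (adjusted p = 0.111) and the poly(A)-binding protein PABPC1 -0.31 (adjusted p = 0.130). EEF2K, MTOR and TSC2 had -0.82, 0.50 and 0.23 (adjusted p = 0.136, 0.181 and 0.321).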

How the data were processed

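The authors deposited FPKM per gene for 12 libraries, with gene length and coordinates. Per the study's supplementary methods, mRNA was sequenced as paired-end reads of 150 bp. The aligner, the counter and the genome build of the table are not given in the sources used here. The labels list mouse builds, which do not go with human identifiers, so positions and sequences are not printed. All 110 symbols looked up were found in the table. FPKM times gene length gave whole reads in every library (100% of values within 0.001 of a read). The library sizes so implied differed from the read totals and were proportional to median-of-ratios factors over the 12 libraries.

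For each comparison of 3 with 3 libraries, limma (version 3.58.1, R 4.3.3, eBayes with a mean-variance trend) was run on log2(FPKM + 0.1). The 17538 genes whose mean over all libraries reached 0.5 FPKM entered. Fold changes are on this scale and understate those of low genes. A call was a Benjamini-Hochberg adjusted p under 0.05 over all genes tested, and was counted again with an absolute log2 fold change over 1. Scripts were tested on simulated data. Alternatives changed the pseudocount, the filter, the scaling, the variance model, the replicate block and a length trend, used voom on the recovered reads, and left out each library.

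The members and the lists were chosen with earlier results of these data known. Members were named by rule: the 5 highest in mean FPKM, and per comparison the 5 with the smallest adjusted p and the 2 highest and 2 lowest log2 fold changes, the paralog pairs, and from the control list the 3 smallest adjusted p against blank. The other members called with siSRSF1-2, and EIF2S1, EIF5AL1, EIF2S3B, EIF6, EIF4B, EIF1AX and EIF1AD, were named after their values were seen. So were MTOR and TSC2 in all comparisons with blank, RPS6KB1 with both siRNAs, and EEF2K with siSRSF1-2 and OE-LINC01134.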

Additional observations from a re-analysis of the deposited data

Results flagged for a closer look

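EIF3L and EIF4B were the members whose siSRSF1-2 libraries all lay on one side of every blank library while their siSRSF1-3 libraries all lay on the other. The share of all genes that meets this rule was not counted, so these members cannot be set against a background. EIF3L differed by -1.96 on the log2 scale between siSRSF1-3 and siSRSF1-2 (adjusted p = 0.187 with limma). EIF4B, which helps the eIF4A helicases, stood at 92.2, 93.6 and 91.6 FPKM with siSRSF1-2, at 82.9, 83.6 and 83.8 FPKM in blank cells, and at 52.9, 77.9 and 79.8 FPKM with siSRSF1-3. Its difference between the siRNAs was -0.42 (adjusted p = 0.146). The direct comparison of the siRNAs thus passed the threshold for neither gene.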

How the results depend on the processing

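With siSRSF1-2 against blank (6 higher, 7 lower, median -0.03), scaling to a common FPKM sum gave 10 and 3 with a median of 0.10. Over all genes this scaling called 21.1% higher and 8.95% lower. Own read totals gave a median of 0.0140. Without a trend, eBayes gave 4 and 4 (13.1% and 11.7% of all genes), and one fit over all groups 0 and 0 (1.74% and 2.01%). With a replicate block, 2 members were higher and 2 lower, beside 7.10% and 7.01% of all genes. The replicate numbers did not pair the libraries (correlations of deviations from -0.0815 to 0.0420). In the other comparisons the block left the members' counts at 0, but it lowered the counts over all genes. These went from 60 and 164 to 0 and 0 with siSRSF1-3 against blank. They went from 79 and 128 to 1 and 3 with OE-LINC01134, and from 6 and 9 to 0 and 0 between the siRNAs. Leaving out 1 library gave 1 to 21 higher, 2 to 14 lower and medians of -0.0937 to 0.0583. Over all genes these omissions called 5.16% to 27.4% higher and 5.27% to 24.7% lower.

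With siSRSF1-3 against blank (0 and 0, median 0.26), one fit gave 9 and 3 (14.9% and 12.9% of all genes), with 3 members beyond 2-fold. The common sum gave a median of -0.18 and own totals one of 0.000539. Omissions gave 0 to 14 higher, 0 to 6 lower, 0 to 14 beyond 2-fold and medians of 0.0880 to 0.31. Over all genes they called 0.00% to 19.1% higher and 0.00% to 16.8% lower.

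With OE-LINC01134 against blank (0 and 0, median 0.03), the median was 0.0203 with median-of-ratios factors recomputed for the libraries compared. It was 0.12 with the common sum and 0.0407 with the length trend removed. Leaving out blank replicate 1 and OE-LINC01134 replicate 2 together, an alternative added after seeing the data, gave 25 and 16 with 1 beyond 2-fold and a median of 0.17. Single omissions gave 0 to 6 higher, 0 to 7 lower, 0 to 1 beyond 2-fold and medians of -0.0211 to 0.16.

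With siSRSF1-3 against siSRSF1-2 (0 and 0, median 0.15), one fit gave 16 and 6 (16.8% and 15.5% of all genes), with 9 members beyond 2-fold. With voom 1 was lower, beside 0.371% of all genes. The median was -0.42 with the common sum, -0.15 with own totals and 0.34 with the length trend removed. Omissions gave 0 to 25 higher, 0 to 10 lower, 0 to 17 beyond 2-fold and medians of 0.12 to 0.29. Over all genes they called 0.00% to 31.2% higher and 0.00% to 30.0% lower. Shares of all genes beyond 2-fold under these alternatives are not given here. SRSF1 differed by -0.37 between the siRNAs, and by -0.61 to 0.00311 under single omissions, the latter without siSRSF1-3 replicate 1.

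Paralog ratios changed sign only where they were close to 0. Against blank with OE-LINC01134, omissions gave -0.14 to 0.0881 for EEF1A2/EEF1A1, -0.0850 to 0.25 for EIF4A2/EIF4A1, -0.19 to 0.19 for EIF5A2/EIF5A, -0.10 to 0.0601 for EIF1B/EIF1 (-0.00583 with a pseudocount of 1) and -0.18 to 0.31 for EIF4G3/EIF4G1. For the last pair with siSRSF1-2 they gave -0.18 to 0.30. In the other settings, 55 of 56 paralog values kept their sign. The cause of these changes was not tested. Groups of 3 limit every call, and 0.1 is the smallest exact p.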
